A study of Mus musculus with 7 samples.

Results

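The Sox2 locus on mouse chromosome 3 was described here by its accessible chromatin. All ATAC-seq peaks within 500 kb of either end of the Sox2 gene body (GRCm38/mm10, RefSeq, positions 34649995 to 34652461, read on the + strand) were taken from each of the 7 deposited peak lists. Peaks of different libraries that overlapped by at least 1 bp were merged into regions. The window, from 34149995 to 35152461, held 179 of the 326695 regions found on chromosomes 1 to 19 and X: 72 before the start of Sox2 (upstream), 2 at the gene and 105 past its end (downstream). Sox2 was the only protein-coding gene of the window. The nearest others were Dnajc19, 568.6 kb upstream, and Atp11b, 1101.6 kb downstream, so the locus lies in a gene desert.

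SOX2 is a transcription factor with an HMG box that binds DNA in the minor groove. In the embryo it marks the foregut and its derivatives, the oesophagus and stomach, whereas the intestine is marked by CDX2. Developmental regulators such as Sox2 often sit in gene-poor stretches of the genome, where enhancers far from the gene can act on its promoter. ATAC-seq inserts adapters with the Tn5 transposase into DNA that is not packed away, and a peak marks a stretch with many insertions. An accessible region is not by itself shown to be an enhancer, nor to act on the nearest gene.

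The study compared chromatin accessibility between parts of the embryonic mouse gut at embryonic days 13 and 16, with 7 libraries, 1 for each group. E13 stomach and E13 intestine (E13.5 in the protocol) came from ShhCre; R26YFP/+ embryos, in which Cre under the control of Shh switches on a yellow fluorescent reporter in gut epithelium. Per the labels, those organs were digested with trypsin, and 50000 YFP+ cells from 3 to 4 pooled embryos were sorted for each library. The E16 forestomach, hindstomach, intestine (proximal small intestine) and colon libraries came from epithelium of E16.5 embryos with the same ShhCre; R26YFP/+ alleles. Dispase, peeling and then collagenase were used for the forestomach. Hindstomach epithelium was released with 10 mM EDTA and that of the intestine and colon with 5 mM EDTA. For the E16 Sox2 KO stomach library (KO stomach), the deleted allele, the Cre driver, the stomach part and the way of isolation are not known from the labels. Stage differs together with isolation, so their effects cannot be told apart.

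The promoter of Sox2 is shown because it held the only region of the window with a peak in every library. Such regions are 4.46% of all regions and 2.15% of those over 1 kb from the ends of all protein-coding genes. The promoter of the long non-coding RNA gene Gm35255 is shown because it was open in the stomach libraries alone. Both are the 250 bases before the RefSeq start site (GRCm38.p6), given 5′ to 3′ on the + strand. Capitals mark the bases under a peak in all 7 libraries for Sox2 and in all 4 stomach libraries for Gm35255. Since it is not stated whether the deposited positions count from 0 or 1, the edges of the capitals hold to within 1 base.
Sox2 promoter, chr3:34649745-34649994: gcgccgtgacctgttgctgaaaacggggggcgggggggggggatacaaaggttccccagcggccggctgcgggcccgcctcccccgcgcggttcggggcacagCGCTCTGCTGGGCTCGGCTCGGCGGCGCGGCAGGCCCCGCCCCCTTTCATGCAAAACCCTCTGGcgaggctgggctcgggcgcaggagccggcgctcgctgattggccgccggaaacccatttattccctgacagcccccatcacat
Gm35255 promoter, chr3:34949977-34950226: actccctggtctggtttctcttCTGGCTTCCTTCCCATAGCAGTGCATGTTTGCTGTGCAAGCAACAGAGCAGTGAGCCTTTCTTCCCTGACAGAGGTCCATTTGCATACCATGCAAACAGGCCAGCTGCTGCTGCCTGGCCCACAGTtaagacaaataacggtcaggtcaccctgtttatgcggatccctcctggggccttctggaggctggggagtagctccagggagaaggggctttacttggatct
The common stretch of the Sox2 promoter was 64 bp long and ran from 147 to 84 bp before the start site. The 250 bases held 72% G and C, against a median of 52.4% over the promoters of the RefSeq table, and 27 CpG dinucleotides. The Gm35255 promoter held 54.4% G and C and 2 CpG, and its stomach stretch was 126 bp long, from 228 to 103 bp before the start.

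Short motifs were searched on both strands of these sequences, and the share of the 32817 RefSeq promoters (250 bp each) that hold each motif is given beside it. In the Sox2 promoter the SOX motif ACAANG occurred 1 time, 206 bp before the start (36.3% of promoters), and the CCAAT box ATTGG 1 time, 46 bp before it (33.8%). The KLF and SP motif GGGNGGG occurred 7 times, 6 of them overlapping, with first bases from 223 to 215 bp before the start (44.8% of promoters). Of the 7 matches, that on the other strand at 112 bp lies in the stretch open in all 7 libraries. The octamer core ATGCAAA, searched only after the sequences were seen, occurred 1 time in the Sox2 promoter, at 99 bp, and 2 times in that of Gm35255, at 149 and 139 bp. It was found in 4.13% of promoters, and all of these matches lie within the capitals. Neither sequence held the letters of the CDX motif TTTATNG (9.81% of promoters), the GATA motif AGATAA (9.99%) or the FOX motif TGTTTAC (3.16%). Neither held those of the AP-1 motif TGANTCA (6.75%), the TEAD motif GGAATG (12.6%) or the E2F motif TTNGCGC (5.19%).

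At the start of Sox2, the merged region of 796 bp (34649301 to 34650097) was covered to very different extents. E13 stomach had a peak of 736 bp and KO stomach a peak of 524 bp, and both ran across the start site. Forestomach had 2 separate peaks of 159 and 142 bp, and hindstomach 2 of 147 and 174 bp. The hindstomach peak of 174 bp also reached just past the start site. The 3 intestinal libraries had short peaks of 64 bp (E13 intestine), 94 bp (E16 intestine) and 108 bp (colon), which ended 84, 64 and 67 bp before the start site. Of the 250 bases printed above, 250 were under a peak in E13 stomach and in KO stomach, 169 in hindstomach, 142 in forestomach, 108 in colon, 94 in E16 intestine and 64 in E13 intestine. The stomach libraries thus covered more of the promoter than the intestinal ones, with E13 stomach and KO stomach covering all of it. Peak width is not peak height, and the files hold no height.

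The second region at the gene, 34650802 to 34651107, lay inside the Sox2 gene body and had a peak in forestomach and hindstomach only. KO stomach had none there, but neither did E13 stomach. It is therefore no check of the knockout label, and the deposited positions hold no other.

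Over the whole window, the number of regions with a peak in a library was compared with that library's share of all 326695 regions, and of the 299509 regions lying over 1 kb from the ends of all protein-coding genes, because the window is gene-poor. With 1 library for each group there is no spread between replicates, and no difference was tested. The ranges in brackets are 95% Wilson intervals, which hold only the error of counting. The libraries held between 81179 and 135743 peaks, read depth is unknown, and the list lengths touch each count that follows.

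Among the stomach libraries, 48 of the 179 regions had a peak in E13 stomach, 26.8% (20.9 to 33.7), against 28.2% of all regions and 25.2% away from gene ends. Forestomach had 42, 23.5% (17.9 to 30.2), against 26.1% and 23.9%. Hindstomach had 53, 29.6% (23.4 to 36.7), against 33.3% and 31.0%. These 3 shares lay close to their backgrounds, each within the interval. KO stomach had 62, 34.6% (28.1 to 41.9), against 31.8% and 28.2%, so its share was above both, which its interval still held. E13 intestine had 28, 15.6% (11 to 21.7), against 22.9% and 20%, the lowest share of the 7. The background over all regions lay above its interval and that away from gene ends inside it. Its list was the shortest. The share was 22.6% with each list cut to equal length, and 7.26% where a peak had to cover 50% of a region. E16 intestine had 41, 22.9% (17.4 to 29.6), against 28.9% and 27.2%. Colon, the longest list, had 67, 37.4% (30.7 to 44.7), against 40.8% and 40.3%.

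The shares by library differed between the sides of Sox2, which was described and not tested. On the upstream side 16 of 72 regions (22.2%) had a peak in E13 stomach, 8 (11.1%, 5.74 to 20.4) in forestomach, 15 (20.8%) in hindstomach and 14 (19.4%, 12.0 to 30.0) in KO stomach. On the downstream side 31 of 105 (29.5%) had a peak in E13 stomach, 32 (30.5%, 22.5 to 39.8) in forestomach, 36 (34.3%) in hindstomach and 47 (44.8%, 35.6 to 54.3) in KO stomach. Each of the 4 stomach libraries thus had the larger share downstream, and in forestomach and KO stomach the intervals of the sides did not meet. Upstream, 9 regions (12.5%) had a peak in E13 intestine, 17 (23.6%) in E16 intestine and 32 (44.4%) in colon. Downstream, the counts were 18 (17.1%), 23 (21.9%) and 34 (32.4%). E13 intestine, like the stomach libraries, had the larger share downstream, with overlapping intervals (6.72 to 22.1 and 11.1 to 25.5). E16 intestine had nearly the same share on both sides, and colon the larger share upstream, with overlapping intervals (33.5 to 55.9 and 24.2 to 41.8). The 72 and 105 regions are those of all 7 libraries together, so a share also depends on the peaks of the other libraries. By count, E16 intestine (17 and 23) and colon (32 and 34) had more regions downstream.

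**Figure D1:**
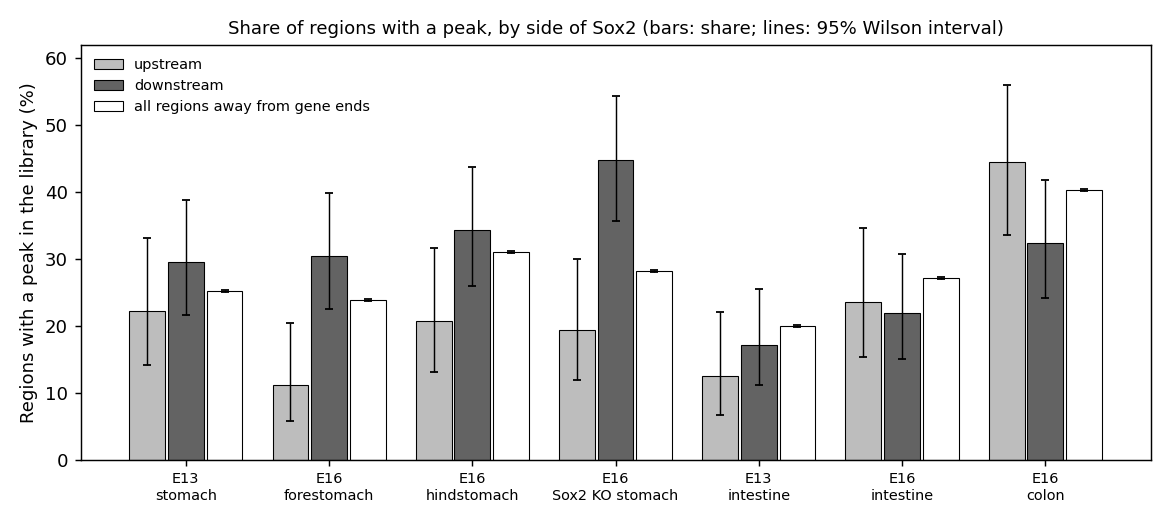
Percent of upstream and of downstream regions of the Sox2 window with a peak in each library, with 95% Wilson intervals, beside the percent of all regions away from gene ends. The 4 stomach libraries lie higher downstream than upstream, most of all forestomach (11.1% and 30.5%) and KO stomach (19.4% and 44.8%). Colon lies higher upstream (44.4% and 32.4%), though by count it has 32 of 72 regions upstream and 34 of 105 downstream. E13 intestine also lies higher downstream (12.5% and 17.1%).

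In steps of 100 kb, KO stomach had its highest counts far from the gene, 15 of the 29 regions between 400 and 500 kb downstream and 11 of the 21 between 100 and 200 kb downstream. Forestomach and hindstomach were densest between 200 and 300 kb downstream, with 9 and 10 of 21 regions. Between 200 and 300 kb upstream, where only 6 regions lie, neither had a peak, while E13 stomach had 3 and KO stomach 2. E13 intestine had 0 of the 19 regions in the first 100 kb downstream and 8 of 29 between 400 and 500 kb. Colon was spread more evenly, with 5 to 9 regions in 9 of the 10 steps and 2 in the step between 200 and 300 kb upstream.

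**Figure D2:**
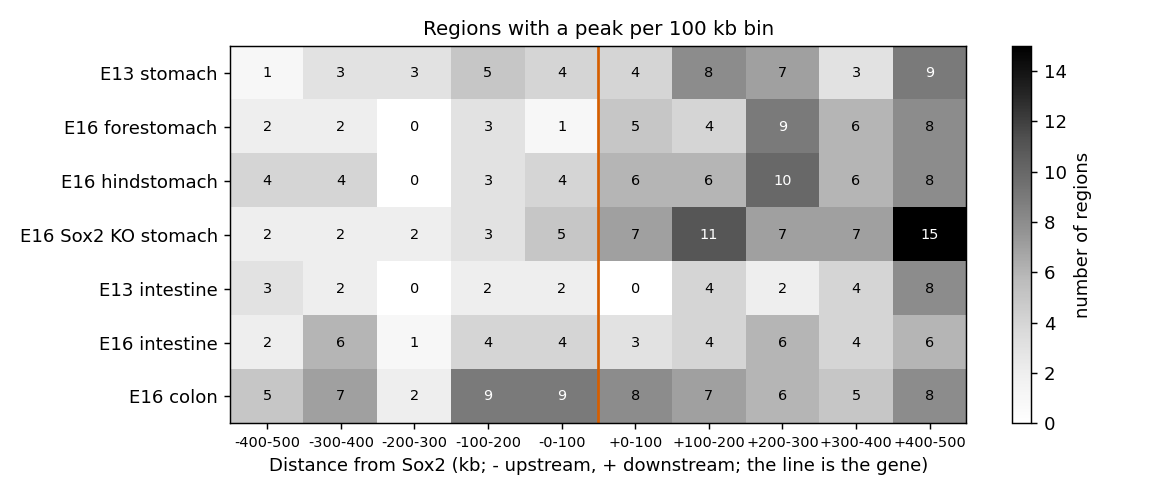
Number of merged regions with a peak in each library in steps of 100 kb from Sox2, upstream to the left and downstream to the right. KO stomach reaches 15 regions at 400 to 500 kb downstream, and E13 intestine has 0 in the first 100 kb downstream.

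Regions open in all 4 stomach libraries and in no intestinal library numbered 6, and all 6 lay downstream. They were 3.35% of the window's regions, against 1.09% of all regions and 1.10% away from gene ends. With KO stomach left aside the same 6 were found, against 1.29% of all regions. By distance from the end of Sox2 they lay at 94.9 kb (chr3:34747395-34748104), 172.6 kb (chr3:34825049-34825491), 256.8 kb (chr3:34909285-34909671), 297.3 kb (chr3:34949782-34950184), 382.8 kb (chr3:35035273-35035695) and 489.1 kb (chr3:35141554-35141797). None of them overlapped an annotated gene, and the region at 297.3 kb ended just before the start of Gm35255, whose promoter is printed above. Where a peak had to cover 50% of a region to count, 3 of this kind were left. Leaving out any of the 7 libraries in turn, there were 6 to 9 such regions downstream and 0 upstream. Leaving a library out removes a condition, so these counts could stay or rise but not fall.

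The widths of these peaks differed from library to library. The region at 94.9 kb was the widest, with peaks of 653 bp in E13 stomach, 404 bp in forestomach, 333 bp in hindstomach and 653 bp in KO stomach. At 172.6 kb the order was turned, with 111 bp in E13 stomach, 314 bp in forestomach, 293 bp in hindstomach and 87 bp in KO stomach. At 382.8 kb the peaks had 252, 380, 422 and 191 bp in the same order of libraries. In both of these regions the peaks of forestomach and hindstomach were wider than those of E13 stomach and KO stomach. The region at 256.8 kb had 360, 227, 150 and 294 bp, and that at Gm35255 213, 129, 284 and 402 bp. At 489.1 kb, near the edge of the window, the peaks had 145, 210, 147 and 232 bp.

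**Figure D3:**
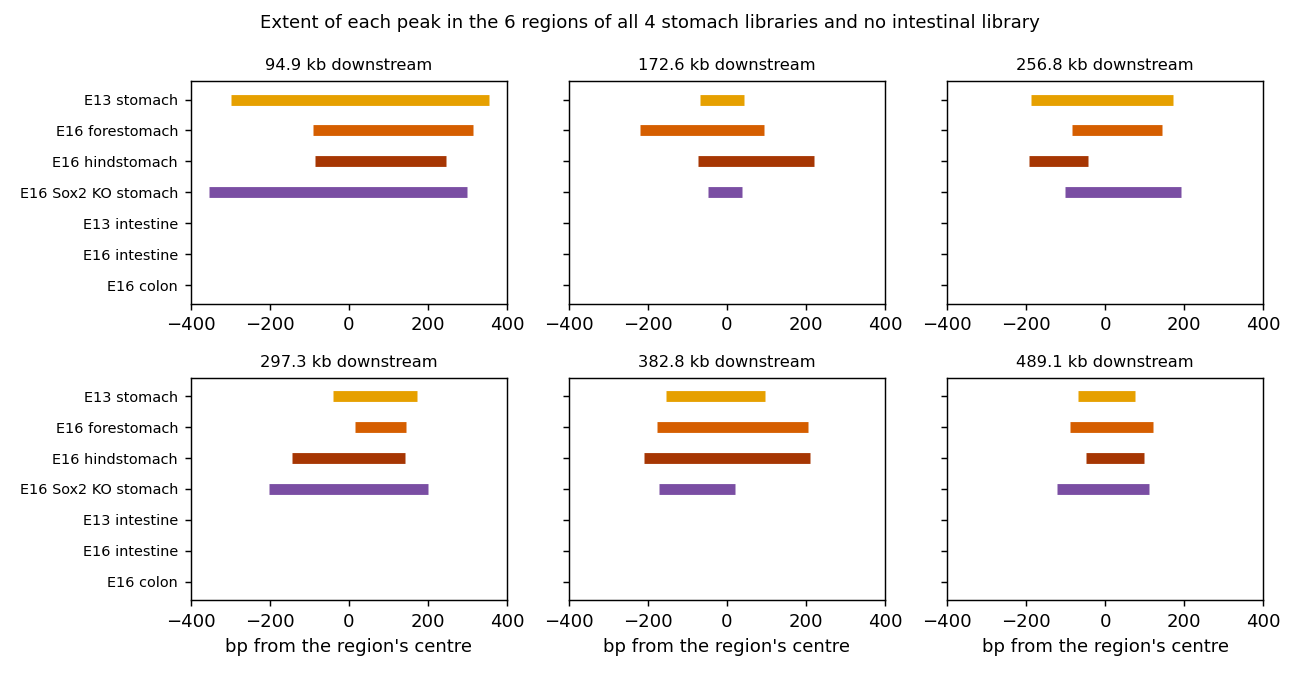
Extent of each stomach library's peaks in the 6 regions open in all 4 stomach libraries and in no intestinal library, as distance in bp from the centre of each region. The region 94.9 kb downstream has the longest peaks, 653 bp in E13 stomach and in KO stomach, and at 172.6 kb and 382.8 kb forestomach and hindstomach have the longer ones.

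Without regard to the intestinal libraries, 11 regions had a peak in all 4 stomach libraries, the start of Sox2 and 10 downstream, with 0 upstream. They were 6.15% of the window's regions, against 8.73% of all regions and 5.89% away from gene ends, so their number was near the background while their place was on 1 side. The other 4 downstream regions lay at 232.7, 432.1 and 481.1 kb, each with a peak in E13 intestine too, and at 414.4 kb, with peaks in E13 intestine and colon. E13 intestine thus shared 4 of the 10 downstream regions, colon 1 and E16 intestine 0. Over the 10 regions the median widest peak was 192.5 bp in E13 stomach, 257.5 bp in forestomach, 288.5 bp in hindstomach and 262 bp in KO stomach, against 138, 178, 147 and 153 bp over each whole list. Merged regions of the window found in more libraries were wider, with a median of 94 bp for 1 library and 320 bp for 4. The peak widths were not set beside those of other regions with peaks in 4 libraries, so they show no trait of this locus.

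The same window was laid around each of the 21631 protein-coding genes of chromosomes 1 to 19 and X. The windows of neighbouring genes overlap and share regions, so these counts are a description and not independent samples. The Sox2 window's 179 regions lay near the middle, with a median of 168 and quartiles of 132 and 193. Its 6 regions open in all 4 stomach libraries alone compared with a median of 2 (quartiles 1 and 3), and 4.71% of genes had 6 or more. Of the 1018 genes with 6 or more, 97 (0.448% of all genes) had none on 1 of the sides. That condition was taken from the values of Sox2 itself, which meets it by construction, so the share does not measure how rare the pattern is. Sox2 had 1 region with a peak in all 7 libraries, against a median of 10, and 95.9% of genes had at least 1. Such regions were 4.46% of all regions but 2.15% away from gene ends. Since Sox2 is the only protein-coding gene of its window, the median is not a like comparison. Over the 7 libraries together, 99 of the 179 regions (55.3%) had a peak in 1 library only, against 57.7% away from gene ends.

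**Figure D4:**
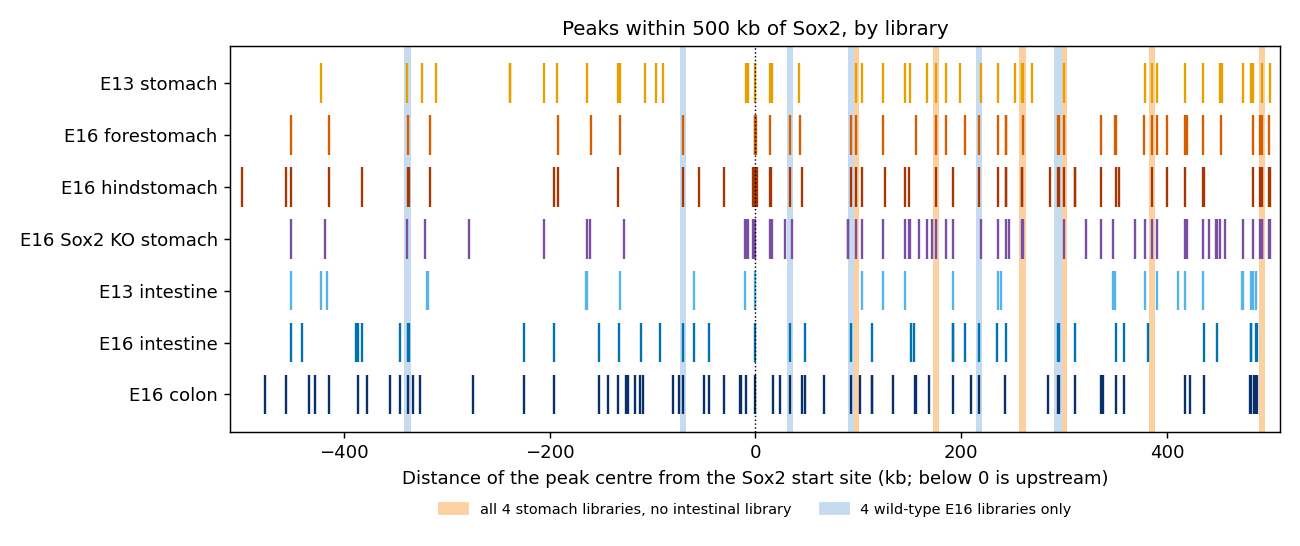
Peaks of the 7 libraries within 500 kb of Sox2, drawn by distance from the start of the gene in kb (dotted line), 1 row for each library. Shaded bands mark the 6 regions open in all 4 stomach libraries alone (orange), all to the right of Sox2, and the 7 regions open in the 4 E16 libraries without the knockout label and in no other (blue).

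The pairs of libraries were compared next by the regions they did not share. E13 stomach against E13 intestine asks which parts of the locus differ between organs at the earlier stage. There were 33 stomach-only, 13 intestine-only and 15 shared regions of 61, against 40.7% stomach-only, 27.0% intestine-only and 32.2% shared over all regions of either library. Stomach-only regions were 71.7% (57.5 to 82.7) of the unshared ones, against 60.1% over all regions, with 13 of 19 upstream and 20 of 27 downstream. The stomach-sided share was thus above that of all regions, whose value lay inside the interval. In hindstomach against E16 intestine, 37 regions were hindstomach-only, 25 intestine-only and 16 shared (38.1%, 28.8% and 33.1% over all regions). The hindstomach-only share was 59.7% (47.3 to 71.0) against 57.0%, with 9 of 20 unshared regions upstream and 27 of 41 downstream, a window share near the background.

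Between the stomach parts, 12 regions were forestomach-only, 23 hindstomach-only and 30 shared, with 18.6%, 36.1% and 45.3% over all regions. The forestomach-only share of unshared regions, 34.3% (20.8 to 50.8), lay at the 34.0% of all regions, and forestomach has the shorter list. When each list was cut to its widest peaks so that all had equal length, the share turned to 56.7%. Between E16 intestine and colon 17 were intestine-only, 43 colon-only and 24 shared (21.7%, 44.5% and 33.8% over all regions), a share of 28.3% (18.5 to 40.8) against 32.8%, which turned to 51.5% at equal list length. E13 and E16 intestine had only 6 regions in common, with 22 and 35 of their own (33.0% and 46.9% over all regions), and the 6 shared of 63 (9.52%) compare with 20.1% over all regions and 14.6% away from gene ends. Among the shared regions was the promoter of Sox2.

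E13 stomach and hindstomach shared 17 regions, with 31 E13-only and 36 hindstomach-only (26.5%, 31.5% and 42.0% over all regions). The E13-only share was 46.3% (34.9 to 58.1) against 42.9%, and it was 51.0% at equal list length. Of the 17 shared regions 15 lay downstream and 1 upstream, where 15 regions were E13-only and 14 hindstomach-only. E13 stomach and forestomach shared 15, 13 of them downstream and 1 upstream, with 33 E13-only and 27 forestomach-only (24.6%, 40.1% and 35.3% over all regions). The E13-only share was 55% (42.5 to 66.9) against 53.2%, and 47.1% at equal list length, so neither direction held. In both comparisons the regions common to the stages lay nearly all on the downstream side, while the shares of unshared regions were near those of all regions.

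KO stomach was set beside the other stomach libraries to see which regions of the locus are found in the library with the knockout label. That label has no check in these files, and the library's stomach part and isolation are unknown too, so genotype cannot be told apart from these. Of the 30 regions shared by forestomach and hindstomach (16.8% of the window, 18.5% of all regions and 16.1% away from gene ends), 16 had a peak in KO stomach, 53.3% (36.1 to 69.8), against 59.0% of such regions in all and 50.4% away from gene ends. The count for the locus was thus near the background. It was not spread evenly, with 14 of 22 downstream, 1 of 6 upstream and 1 of the 2 at the gene.

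Split by the intestinal libraries, 12 of the 17 regions with no peak in E16 intestine or colon were found in KO stomach, 70.6% (46.9 to 86.7), against 59.2% over all regions and 57.7% away from gene ends. Of the 13 with a peak in E16 intestine or colon, 4 were found, 30.8% (12.7 to 57.6), against 59.0% and 46.5%. Downstream the counts were 12 of 14 and 2 of 8. Under the 50% cover rule the counts over the window were 8 of 16 without and 0 of 7 with a peak in E16 intestine or colon. With peaks at least as wide as their list's median they were 6 of 9 and 1 of 2. The share was higher for regions closed in E16 intestine and colon, but the intervals of the shares overlap. Over all regions the split made no such difference, while away from gene ends it went in the same direction (57.7% and 46.5%). Split by stage, all 11 regions with a peak in E13 stomach were found in KO stomach, 100% (74.1 to 100), against 90.9% over all regions and 86.4% away from gene ends. Of the 19 without, 5 were found, 26.3% (11.8 to 48.8), against 24.7% and 23.9%. The shares with and without a peak in E13 stomach had intervals that do not meet, and over all regions away from gene ends the same split also parted them.

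**Figure D5:**
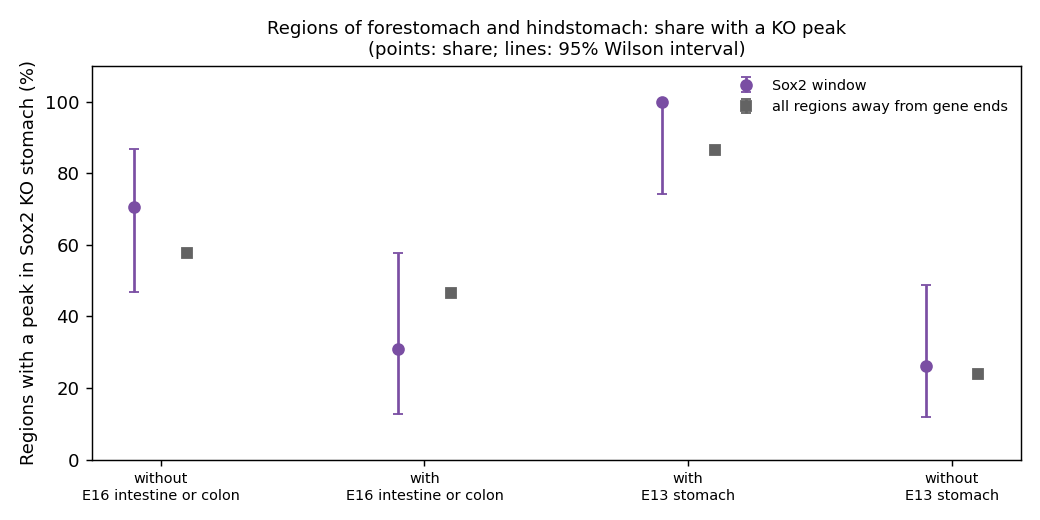
Percent of the regions shared by forestomach and hindstomach that had a peak in KO stomach, for the 30 regions of the Sox2 window split by peaks in E16 intestine or colon and in E13 stomach, with 95% Wilson intervals, beside the percent over regions away from gene ends. The widest gap is by E13 stomach, 11 of 11 against 5 of 19.

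Of the 14 regions of forestomach and hindstomach with no peak in KO stomach (7.82% of the window, 7.59% of all regions and 7.99% away from gene ends), 5 lay upstream, 1 inside Sox2 and 8 downstream. None had a peak in E13 stomach. Among them were 7 regions with peaks in forestomach, hindstomach, E16 intestine and colon and in no other library, 3.91% of the window against 3.38% of all regions and 3.61% away from gene ends. They lay 337.9 and 70 kb upstream and 31, 90.6, 214.3, 290.8 and 292.5 kb downstream. These are the regions common to the 4 E16 epithelia that were prepared by peeling or EDTA, and isolation, stage and genotype cannot be told apart in them. A further 5 had peaks in forestomach and hindstomach alone, 2.79% of the window against 1.99% of all regions. They lay at 316.1 and 191.9 kb upstream, inside Sox2, and at 241 and 397.1 kb downstream.

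KO stomach and E13 stomach shared 30 regions, with 32 KO-only and 18 E13-only (39.9%, 34.3% and 25.8% over all regions). The KO-only share of unshared regions was 64.0% (50.1 to 75.9), against 57.1%. Downstream, 25 of the 31 regions of E13 stomach (80.6%) also had a peak in KO stomach, while upstream 4 of 16 (25%) did, against 60.7% of all its regions and 54% away from gene ends. The regions of the E13 stomach that were found in KO stomach thus lay mainly downstream. In 10 regions (5.59% of the window, 4.45% of all regions and 4.21% away from gene ends) both had a peak and no other E16 library did (7 of them with no peak in E13 intestine either, 3.91% against 2.84%), at 204.9, 163.8 and 7.2 kb upstream and at 13.6, 148, 163.7, 216.4, 375.6, 449 and 470.7 kb downstream. Of the mesenchyme markers, 5 of 10 had a gene-end peak in E13 stomach, 6 in KO stomach and 3 each in forestomach and hindstomach. In the same order, neural crest and neuron markers with a peak numbered 4, 5, 3 and 3. Blood markers numbered 2, 4, 2 and 2 and endothelial ones 2, 3, 2 and 3, so not all lists parted the libraries this way. The part of other cell types in these 10 regions was not tested.

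Against hindstomach, 38 regions were KO-only, 29 hindstomach-only and 24 shared (33.2%, 36.1% and 30.6% over all regions). The KO-only share was 56.7% (44.8 to 67.9), against 47.9%, with 12 of 25 unshared regions upstream and 26 of 41 downstream. Against forestomach, 42 were KO-only, 22 forestomach-only and 20 shared (43.1%, 30.6% and 26.3%), a share of 65.6% (53.4 to 76.1) against 58.5%. Both shares were above those of all regions, which lay within the intervals. With E16 intestine KO stomach had 3 of 100 regions in common, against 17.1% over all regions and 12.2% away from gene ends, with 59 KO-only and 38 intestine-only (44.3% and 38.6%). The 3 were the start of Sox2, a region 451.5 kb upstream and a region 189.3 kb downstream, and the KO-only share was 60.8% (50.9 to 69.9) against 53.4%. E13 stomach and E16 intestine shared 2 regions, 4.17% of the 48 of E13 stomach, against 30.7% over all regions and 23.4% away from gene ends.

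KO stomach alone had 21 regions, 7 upstream and 14 downstream, 11.7% of the window against 8.91% of all regions and 8.92% away from gene ends. They were narrow, with a median of 86 bp and 13 of 21 under 100 bp. So were the window's regions of any 1 library, with a median of 94 bp and 59 of 99 under 100 bp. Colon alone had 34, 19 upstream and 15 downstream, 19% of the window against 16.9% and 18%, with a median of 96 bp. E13 stomach alone had 14 (7.82%, against 7.58% of all regions), of which 9 lay upstream. Regions with peaks in E16 intestine and colon and in no stomach library numbered 10 (5.59%, against 3.86% and 4.11%), 5 on each side. They lay 386.3, 345.2, 224.9, 151.8 and 44.6 kb upstream and 45.8, 110.5, 355.1, 483.8 and 484.4 kb downstream. Regions of forestomach and hindstomach alone, the stomach pair of the same stage, were also found on both sides, 2 upstream and 2 downstream. With that inside Sox2 they were 2.79% of the window, against 1.99% of all regions.

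The rule cut the window at 500 kb. The last region inside lay 498.4 kb upstream (hindstomach) and the first outside 501.2 kb (hindstomach). Downstream they lay at 496.7 kb (E13 stomach, hindstomach and KO stomach) and 501.8 kb (E13 stomach).

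The window held 16 annotated genes: 12 long non-coding RNA genes, the miRNA genes Mir1897 and Mir6378, 1 pseudogene (Gm5708) and Sox2. Sox2ot, the long non-coding RNA gene in which Sox2 lies (34560381 to 34677993), overlapped 24 regions, the 2 at Sox2 included. Of these, 6 had a peak in E13 stomach, 4 in forestomach, 8 in hindstomach, 8 in KO stomach, 3 in E13 intestine, 4 in E16 intestine and 12 in colon. Colon had the most, 12 of 24, as it had in the whole window, and its list holds a peak in 40.8% of all regions. Gm38505 overlapped 13 regions, with 2 to 4 in each library, and Gm21388 overlapped 7, with 1 to 3 in each. Gm38509 and Gm52623 overlapped 2 each, Gm34599, Gm52624, Gm42205, Gm34941 and Gm3143 1 each, and Gm20515, Gm5708, Mir1897, Mir6378 and the body of Gm35255 none.

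Within 1 kb of an annotated start site, Gm35255 had peaks in the 4 stomach libraries alone. Gm34599 had a peak in E13 stomach, Gm3143 in colon, and Gm52623 in hindstomach and E16 intestine. The start sites of Gm38505, Gm42205, Gm38509 and Gm21388 had none. Start sites were at hand for 9 of the 16 genes, and those of the other 7, Sox2ot among them, were not checked. Of the 9, Sox2 alone had peaks in all 7 libraries and Sox2 and Gm35255 in all 4 stomach libraries.

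Genes with the most similar profile over the 7 libraries were sought by the share of regions in their own window with a peak in each library, relative to all regions, on the log2 scale. For Sox2 these values were -0.07 in E13 stomach, -0.15 in forestomach, -0.16 in hindstomach, 0.12 in KO stomach, -0.53 in E13 intestine, -0.33 in E16 intestine and -0.12 in colon. By root mean square difference over 7 libraries, the nearest of 19436 genes were Serpina3i (0.058), Rtn1 (0.076), Prkg2 (0.081), Pou4f3 (0.095) and Gm42166 (0.101), against a median of 0.419. Their counts of regions open in all 4 stomach libraries alone were 3, 2, 3, 1 and 3, lower than the 6 of Sox2. By Pearson correlation only Serpina3i was again among the nearest 5.

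Among the other SOXB genes, relatives of Sox2 with a like HMG box, Sox21 also had 6 regions open in all 4 stomach libraries alone, 5 upstream and 1 downstream of it. Sox1 had 2, Sox14 1 and Sox3 0. The list of 11 foregut and stomach regulators had a median of 3 (0 to 5), against 2 over all genes (0 to 12). Foxa2, Barx1 and Klf5, transcription factors of endoderm, stomach and epithelium, had 5 each, Gata4 4, Pax9, a foregut factor, 3 and Trp63, the regulator of squamous epithelium, 0. The 9 intestinal regulators had a median of 1 (0 to 4), with 4 for Cdx2 and for Cdx1, factors of intestinal identity, and 0 for Hnf4g and Isx. By count Sox2 thus had more such regions than each listed foregut or intestinal regulator, and as many as Sox21. The gap was small, with 6 of 179 regions for Sox2 against 5 of 163 for Foxa2, 5 of 197 for Barx1 and 5 of 188 for Klf5. Under the 50% cover rule Sox2 had 3, and the other genes were not recounted. More regions open on the stomach side only than on the intestinal side only were found in 9 of 11 foregut windows, 4 of 9 intestinal ones and 14320 of all 21631, with 74 and 64 for Sox2.

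Gene-end peaks of cell type markers were counted in each library. All 10 epithelial markers, Cdh1 and Epcam among them, had a peak in every library. Mesenchyme markers with a peak numbered 8 of 10 in E13 intestine and 3 to 6 in the others. Blood markers ran from 1 (E13 intestine) to 4 of 8 (KO stomach and colon) and endothelial ones from 2 to 4 of 6. Of the 5 neural crest and neuron markers with a peak in any library, 2 (colon) to 5 (KO stomach) had a peak. Col3a1, Pecam1 and Cdh5 had a gene-end peak in none of the 7 libraries. Other members of the non-epithelial lists, Vim, Kdr, Erg, Spi1, Ret and Tubb3, had a gene-end peak in all 7.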

How the data were processed

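ATAC-seq was run on 7 mouse libraries, with 1 for each group. Per the submitters' processing notes the authors named MACS2, Bowtie2 and cutadapt, and the build GRCm38/mm10. Tool versions, cut-offs, pooling of samples and the first base number of positions (0 or 1) stand nowhere in the labels or files used. The deposited lists hold chromosome, start and end of each peak, with no score, count or height, so positions are printed as deposited and read depth is unknown.

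Peaks on chromosomes 1 to 19 and X were merged at an overlap of 1 bp or more, and a region counted for a library with any peak in it. The Sox2 window is the regions within 500 kb of its RefSeq body (GRCm38.p6). Away from gene ends means over 1 kb from either end of any protein-coding gene. Shares have 95% Wilson intervals (counting error only), and no test was run. The counting was tested on simulated data. The members, gene lists and comparisons were chosen with earlier results of these data known. Named genes are every annotated gene of the window, 3 fixed lists (SOXB family, foregut and stomach regulators, intestinal regulators), 5 fixed lists of cell type markers (1 marker is not reported here), and the 5 genes nearest to Sox2 by root mean square difference over 7 libraries. Left out of these 5 were genes with under 50% of its regions, within 2000 kb of it or with a window overlapping a nearer gene's. Relative shares used a pseudocount of 0.5. A planned list ranked by peak score was made by width instead, since the files hold no score. The octamer motif was added after the sequences were seen. Promoter sequences are RefSeq's, and sequences of the other regions are not used here. Alternatives were wider peaks only, equal list lengths, joining over gaps up to 100 bp, windows of 250 and 1000 kb, a 50% cover rule, and a correlation measure. For the regions of all stomach libraries alone and the split shares in KO stomach, all alternatives, leaving out each library included, were added after the data were seen. Python 3.11.15, numpy 2.4.6, scipy 1.17.1 and matplotlib 3.10.9 were used.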

Additional observations from a re-analysis of the deposited data

How the results depend on the processing

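Of 150 alternative values, 129 kept their direction and stayed within 1.5 times the value reported (counts) or inside its 95% interval (shares), 15 moved further and 6 turned. No paired analysis was possible because each group has 1 library. Depth and replicate spread are unknown, so no alternative shows stability beyond these lists. With only the widest 81179 peaks of each list, forestomach had a peak in 33.9% of the window's regions, E13 intestine in 22.6% and colon in 25.8%. There the share of unshared regions that belonged to the library named first turned to 56.7% for forestomach against hindstomach, 51.5% for E16 intestine against colon, 51.0% for E13 stomach against hindstomach and 47.1% for E13 stomach against forestomach, and moved to 52.0% for KO stomach against forestomach. At equal list length 4 comparisons thus turned. With peaks at least as wide as their list's median, 81 regions were left, and E13 stomach had 53.3% against hindstomach, which turned, and 67.9% against forestomach. A window of 250 kb gave 84.0% for E13 stomach against E13 intestine, 54.1% for E13 stomach against hindstomach, which turned, and 2 regions open in all 4 stomach libraries alone downstream. A window of 1000 kb added 2 such regions upstream. Where a library had to cover 50% of a region, hindstomach had 22.9%, E13 intestine 7.26%, E13 against E16 intestine 23.9%, such stomach regions downstream numbered 3, and KO stomach held 0 of 7 (0%) of the forestomach and hindstomach regions with a peak in E16 intestine or colon. Leaving out each library gave 6 to 9 such stomach regions downstream and 0 to 0 upstream. These counts could not fall, since a condition is removed each time, and they are among the 129 values. By Pearson correlation 1 of the 5 nearest genes remained. The cause of the other moves was not tested.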

Other observations

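Past the window, from 500 to 1000 kb, there were 51 regions upstream, where Dnajc19 lies, and 72 downstream. Upstream, 5 had a peak in all 7 libraries and 2 were open in all 4 stomach libraries alone, at 736.2 and 810.9 kb. Downstream, 1 had a peak in all 7 libraries and 0 were open in all 4 stomach libraries alone. Forestomach had a peak in 13 upstream (25.5%) and 10 downstream (13.9%), against 26.1% of all regions and 23.9% away from gene ends. Hindstomach had 19 (37.3%) and 17 (23.6%), against 33.3% and 31.0%, and KO stomach 21 (41.2%) and 18 (25%), against 31.8% and 28.2%. For these 3 libraries the larger share was upstream, whereas within 500 kb it was downstream. E13 stomach had 15 (29.4%) and 25 (34.7%), against 28.2% and 25.2%, with the larger share downstream as within 500 kb. E13 intestine had 13 (25.5%) and 9 (12.5%), against 22.9% and 20%. E16 intestine had 12 (23.5%) and 16 (22.2%), against 28.9% and 27.2%, and colon 22 (43.1%) and 32 (44.4%), against 40.8% and 40.3%. Of the regions shared by forestomach and hindstomach, 9 of 11 upstream and 3 of 7 downstream had a peak in KO stomach. These flanks were looked at after the window's values were seen, and no difference was tested.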
